A study of Mus musculus with 4 samples.

Results

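Imprinted genes are transcribed mainly from the maternal or the paternal copy, and this report gives the levels of 40 of them in activated mouse CD4 T cells. The 40 were taken by symbol, and all 40 were found among the 50600 genes of the deposited tables. They lie at 17 imprinted loci. RNA was sequenced from T cells labelled as primary cells of the inbred strain C57BL/6NJ, in 1 group of 4 biological replicates with no second condition. The headers of the count tables name the cells as Th0, activated, sorted and 72 h, where Th0 is usual for T helper cells activated without polarising cytokines. The donor entry is identical for the 4 libraries, with no age or sex. The labels do not say which replicates were separate animals or cultures, so each spread and p-value speaks of these libraries alone. No genotype, treatment or time contrast exists. The counts are not split by allele, so they show how much of each RNA was present and not which parental copy made it.

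At an imprinted locus, DNA methylation set in the egg or the sperm marks a control region, and the mark is kept through cell division by the methyltransferase Dnmt1 with its partner Uhrf1 and by zinc finger proteins that recruit Trim28. The unmethylated control region often serves as the promoter of a long non-coding RNA or as an insulator bound by Ctcf, and neighbouring genes are thereby read from 1 parental copy. Many such genes act in fetal growth, the placenta and the brain, and many are switched off in adult tissues. Several of the 40 are imprinted in a few tissues only, such as Ube3a in neurons, and are read from both copies elsewhere.

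Total counts were 34978213, 118937382, 42274502 and 95356041 in replicates 1 to 4. The labelled cell type was checked against its markers. All 8 T cell markers had a TPM, the usual abundance scaled by gene length and library total, of at least 1 in every library, with Cd4 at 976 ± 29.3 TPM (SD, n = 4) and Cd8a at 0.267 ± 0.185. The other CD8 chain, Cd8b1, stood at 21.4 ± 5.49 TPM. Summed marker levels were 2.20 to 3.45 TPM for 5 B cell genes, 1.85 to 3.49 for 5 macrophage genes, 3.89 to 4.79 for 7 stromal and endothelial genes, 1.01 to 1.70 for 4 erythroid genes and 1.55 to 2.61 for 4 neural genes. Of these, Pdgfrb (stromal, 3.22 ± 0.340 TPM), Adgre1 (macrophage, 1.48 ± 0.353) and Map2 (neural, 1.46 ± 0.207) reached 1 TPM in every library, while Lyz2, Fcgr1, Col3a1, Cdh5, Hbb-bs and Rbfox3 had 0 counts in all 4. Many low members lay below these summed levels, and the part of other cell types in them was not tested. In such bulk RNA, fewer cells with a transcript and less of it per cell cannot be told apart. Libraries stood apart in 2 ways. Xist was at 278 and 316 TPM in replicates 1 and 2 and at 1.25 and 0.586 in replicates 3 and 4, while the Y-linked Ddx3y was at 0.153, 0.0739, 41.2 and 34.0. Xist is an RNA of female cells, so against the single donor entry the first pair has the pattern of female cells and the other that of male cells, and the libraries did not all come from 1 animal. Within each pair, animal and technical spread cannot be told apart. Nuclear RNAs such as Malat1 were high in replicates 1 and 3, as given below beside Kcnq1ot1.

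The members fell into 3 classes. Of the 40, 16 were expressed, meaning at least 1 TPM in every library, 9 were silent, meaning under 0.1 TPM in every library, and 15 were low. Over all genes 24.8% were expressed and 57.1% silent, and over protein-coding genes 49.9% and 35.3%. The 34 protein-coding members had 14 expressed (41.2%), 11 low (32.4%) and 9 silent (26.5%), against 14.8% low among all protein-coding genes. In these 34 genes the shares of expressed and silent genes were smaller than the background, and the share of low genes larger. The shares were not tested, and the members were chosen with earlier results of these data known. Among the low members, 4 reached 1 TPM in at least 1 library, namely Cdkn1c, Peg10, Dlk1 and Snrpn.

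The classes differed between groups of members. All 8 members imprinted in some tissues only, or with complex transcripts, were expressed, with a median of 69.4 TPM. Of the 21 members known as paternally expressed, 6 were expressed, 9 low and 6 silent, with a median of 0.648 TPM. The 11 known as maternally expressed had 2 expressed, 6 low and 3 silent, with a median of 0.118 TPM. The median over all protein-coding genes was 1.43 TPM. The groups were small and were described without a test. They were drawn up with earlier results of these data known, so the contrast between them may not be independent of the levels. The 8 genes of the first group made up 82.9% to 85.2% of the summed TPM of all members, and with Igf2r added 94.1% to 95.2%.

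**Figure D1:**
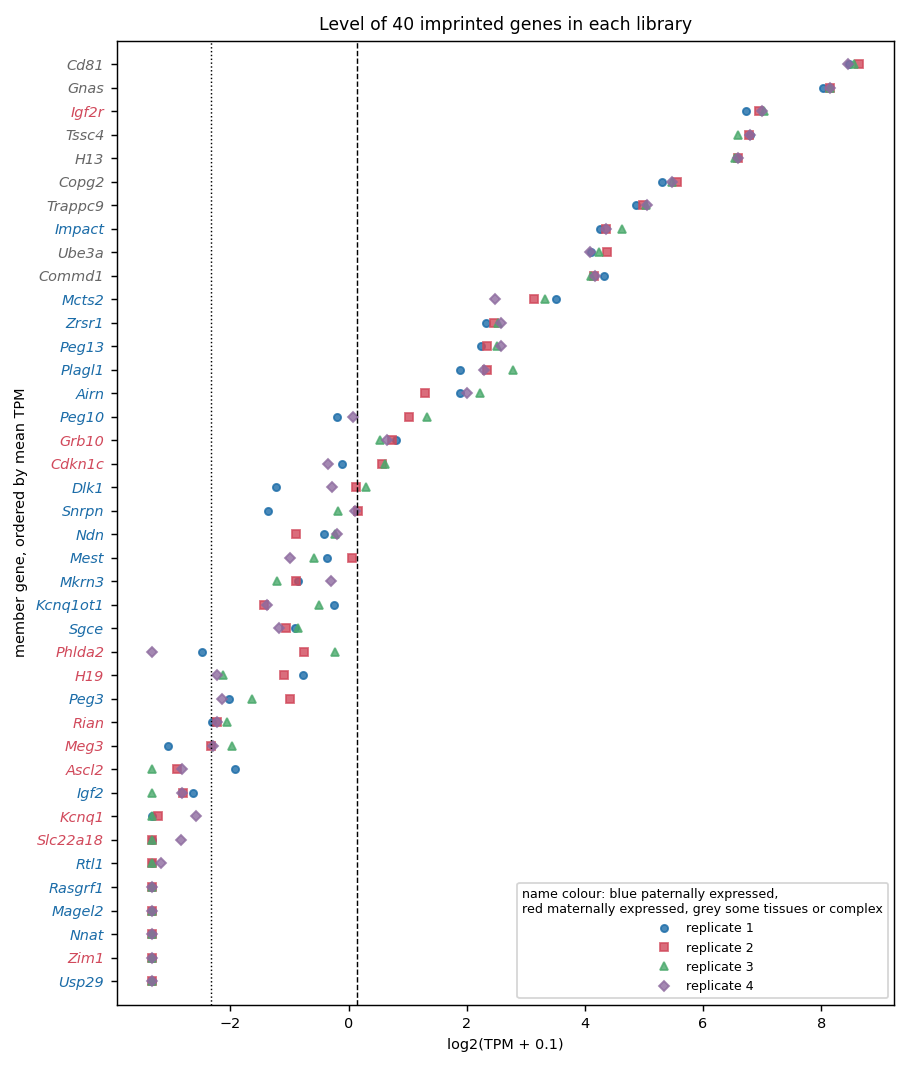
Level of each of the 40 imprinted genes as log2(TPM + 0.1) on the x axis, 1 point per library, with genes ordered by mean TPM on the y axis. The dashed line stands at 1 TPM and the dotted line at 0.1 TPM. Gene names are blue for paternally expressed, red for maternally expressed and grey for members imprinted in some tissues or complex. The grey names sit in the upper part, and the 5 lowest names have 0 counts in all 4 libraries.

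**Figure D2:**
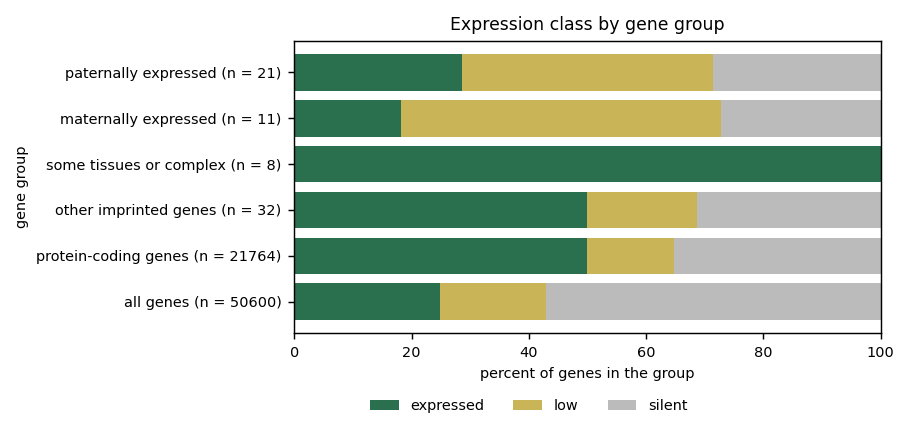
Percent of genes that were expressed (at least 1 TPM in every library), silent (under 0.1 TPM in every library) or low (all others) on the x axis, for 3 groups of members, 32 further imprinted genes, protein-coding genes and all genes. All 8 members of the group imprinted in some tissues or complex were expressed, against 49.9% of protein-coding genes. The groups of members were drawn up with earlier results of these data known.

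The most abundant members were genes of broad cell functions. Cd81, a tetraspanin of the cell surface (ENSMUSG00000037706.17, mm10 chromosome 7, 143052739 to 143067934, plus strand), was at 353, 399, 375 and 351 TPM in replicates 1 to 4. Gnas, which encodes the stimulatory G protein alpha subunit and several transcripts with their own imprinting (chromosome 2, 174284320 to 174346744, plus strand), was at 262, 285, 283 and 284 TPM. Replicate 1 was the lowest for Gnas, but as scaled counts without the length (CPM), the highest library was only 1.03 times the lowest. The deposited Gnas count sums all of its promoters, so the imprinted transcripts were not separated. After Igf2r, described below, came Tssc4, which is known as a factor of spliceosome assembly, at 107 ± 7.19 TPM (SD, n = 4) and H13, a signal peptide peptidase, at 95.1 ± 1.42. Copg2, a coatomer subunit, stood at 43.7 ± 3.10 TPM, and Trappc9, a subunit of a trafficking complex, at 31.6 ± 1.82. Ube3a, the ubiquitin ligase of Angelman syndrome, was at 18.3 ± 1.67 TPM (SD, n = 4) and Commd1, a copper and NF-kappaB regulator, at 18.1 ± 1.27. The last pair differed by less than the spread of each.

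At the Igf2r locus both partners were present. Igf2r, the receptor that clears insulin-like growth factor 2 and carries enzymes to lysosomes (ENSMUSG00000023830.13, chromosome 17, 12682406 to 12769664, minus strand), was the most abundant member known to be read from 1 parental copy. Its levels were 106, 123, 130 and 127 TPM in replicates 1 to 4. Airn, a non-coding RNA that starts inside Igf2r on the opposite strand and represses Igf2r on the paternal copy (chromosome 17, 12741311 to 12860122), was at 3.58, 2.35, 4.56 and 3.92 TPM. Only exonic bases were counted, which for Airn are 3583. Unspliced Airn RNA in the rest of its span is left out of these values. Every library of Igf2r lay far above every library of Airn. Inside a library the TPM ratio was 28.6 to 52.2, and the difference of log2(TPM + 0.1) was 5.07 ± 0.39 (SD, n = 4) and positive in 4 of 4 libraries (exact two-sided permutation of signs, adjusted p = 0.133 over 17 pairs). With 4 libraries the smallest unadjusted p is 0.13, so no pair could pass 0.05, and every pair below with 1 direction in 4 of 4 libraries has these same p-values. The counting was stranded, so RNA of the opposite strands was kept apart.

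The starts of these 2 genes differ in sequence. They are shown because both were expressed in these cells at very different exonic levels, together with the start of Kcnq1ot1, the member called variable below. Each is the 250 bases before the RefSeq start (build GRCm38.p6, the assembly mm10), read 5′ to 3′ on the gene's strand, with every CG in capitals, since CG is the pair that carries DNA methylation. The Igf2r stretch (chr17:12769707-12769956, minus strand) has 27 CG, that of Airn (chr17:12741061-12741310, plus strand) has 2 and that of Kcnq1ot1 (chr7:143296548-143296797, minus strand) has 5. The stretches end at the start, so CG pairs after it are left out of these numbers. In the longer windows compared below, which run past the start, Igf2r had 34 CG, Airn 3 and Kcnq1ot1 9. Bases further into the genes were not examined, so the CG content of whole control regions was not tested.
Igf2r: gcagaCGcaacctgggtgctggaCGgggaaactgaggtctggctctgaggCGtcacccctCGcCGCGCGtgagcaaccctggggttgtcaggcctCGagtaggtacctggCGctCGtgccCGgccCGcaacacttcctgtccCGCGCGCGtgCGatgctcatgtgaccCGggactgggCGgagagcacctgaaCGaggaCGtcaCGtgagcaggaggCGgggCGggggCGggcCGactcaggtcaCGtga
Airn: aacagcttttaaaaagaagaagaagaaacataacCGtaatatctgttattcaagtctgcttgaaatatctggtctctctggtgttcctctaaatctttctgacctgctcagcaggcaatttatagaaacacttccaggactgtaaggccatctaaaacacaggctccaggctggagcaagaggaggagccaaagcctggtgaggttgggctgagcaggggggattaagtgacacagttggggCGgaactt
Kcnq1ot1: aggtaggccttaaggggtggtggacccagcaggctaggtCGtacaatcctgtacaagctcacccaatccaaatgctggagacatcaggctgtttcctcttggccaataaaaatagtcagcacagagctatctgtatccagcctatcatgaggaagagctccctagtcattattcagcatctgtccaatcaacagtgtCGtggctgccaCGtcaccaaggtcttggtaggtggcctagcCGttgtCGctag

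The Kcnq1 domain on chromosome 7 held abundant, low and silent members. Kcnq1ot1, the non-coding RNA that silences the domain on the paternal copy (ENSMUSG00000101609.1, chromosome 7, 143212155 to 143296549, minus strand), had 711, 834, 662 and 704 counts over its single row of 84395 exonic bases. Those counts gave 0.746, 0.271, 0.605 and 0.282 TPM. Kcnq1, the potassium channel in which it lies on the opposite strand, was silent, with 0, 1, 0 and 8 counts. Kcnq1 minus Kcnq1ot1 was -2.23 ± 0.88 on the log2(TPM + 0.1) scale (SD, n = 4) and negative in 4 of 4 libraries. With so few Kcnq1 counts, its size rests on the pseudocount, and it was -0.52 with a pseudocount of 1. Cdkn1c, the inhibitor of cyclin-dependent kinases also called p57, was at 0.825, 1.37, 1.44 and 0.681 TPM, on both sides of 1. Phlda2, a brake on placental growth, had 1, 20, 11 and 0 counts, and Ascl2, a transcription factor of trophoblast and follicular helper T cells, had 3, 2, 0 and 2. Slc22a18, a transporter, had 0, 0, 0 and 2 counts. Cd81 exceeded Tssc4 by 1.79 ± 0.15 log2 in 4 of 4 libraries, and both stood far above the other 6 members of the domain.

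H19 and Igf2 lay near the limit of detection. H19, a non-coding RNA abundant in the fetus (chromosome 7, 142575529 to 142578143), had 13, 32, 4 and 8 counts, or 0.486, 0.370, 0.130 and 0.114 TPM. Igf2, the fetal growth factor (chromosome 7, 142650766 to 142666816), had 4, 9, 0 and 7 counts, or at most 0.0619 TPM. H19 minus Igf2 was 1.34 ± 0.57 log2 in 4 of 4 libraries and fell to 0.29 with a pseudocount of 1.

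Among the expressed paternal genes were 2 retrocopies, genes made by copying a spliced RNA back into the genome. Mcts2, a copy of the X-linked translation factor Mcts1 (ENSMUSG00000042814.7, chromosome 2, 152687035 to 152687951), lies in an intron of H13. It was at 11.3, 8.71, 9.93 and 5.46 TPM in replicates 1 to 4, from 117, 291, 118 and 148 counts, and was lowest in replicate 4. Mcts1 stood at 83.4 ± 1.33 TPM (SD, n = 4), or 7.26 to 15.3 times Mcts2, and the log2 difference was 3.27 ± 0.46 in 4 of 4 libraries. H13 exceeded Mcts2 by 3.46 ± 0.46 log2 in 4 of 4 libraries. Both lie on the plus strand, so intronic H13 precursor RNA would be counted as Mcts2, and its part in these counts was not tested.

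How far a copy can be told from its parent shows in the coding sequence. The first 120 coding bases of Mcts2 and Mcts1, from GENCODE M21 transcripts, are shown with the 19 positions that differ in capitals.
Mcts2: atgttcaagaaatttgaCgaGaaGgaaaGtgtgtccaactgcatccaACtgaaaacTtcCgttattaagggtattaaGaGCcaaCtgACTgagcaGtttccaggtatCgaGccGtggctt
Mcts1: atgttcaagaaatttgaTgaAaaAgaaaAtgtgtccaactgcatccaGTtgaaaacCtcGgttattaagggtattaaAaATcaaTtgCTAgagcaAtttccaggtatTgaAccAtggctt
Over the whole reading frame of 546 bases the pair was identical at 465, or 85.2%, with no stretch of identity longer than 29 bases. Zrsr1, a splicing factor gene copied from the X-linked Zrsr2, was 80.6% identical to it over 1282 aligned coding bases, with a longest identical run of 37. Snrpn and its paralog Snrpb shared 80.5% of 696 aligned bases, with a longest run of 32. Reads within such runs could be counted for neither gene, since multiply mapped reads were not counted.

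Zrsr1 (chromosome 11, 22973215 to 22976496, plus strand) was steady, at 4.91, 5.44, 5.66 and 5.89 TPM. Zrsr2 was at 16.1 ± 1.70 TPM (SD, n = 4) and exceeded Zrsr1 by 1.53 ± 0.14 log2, and Commd1, in whose intron Zrsr1 lies on the opposite strand, exceeded it by 1.71 ± 0.20 log2. Both differences were positive in 4 of 4 libraries. Peg13, a non-coding RNA in an intron of Trappc9 (chromosome 15, 72805600 to 72810324), was at 4.61, 4.95, 5.58 and 5.88 TPM. Trappc9 exceeded Peg13 by 2.57 ± 0.08 log2 in 4 of 4 libraries, the narrowest spread of the 17 pairs compared. Peg13 and Trappc9 share the minus strand in the deposited annotation, so here too the part of intronic precursor RNA was not tested.

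The other expressed members among those known as paternally or maternally expressed were Impact, Plagl1 and Grb10. Impact, which restrains the amino acid sensing kinase Gcn2 (chromosome 18, 12972252 to 12992948), was at 19.05, 20.41, 24.48 and 20.49 TPM, the highest of the paternally expressed genes. Igf2r and Impact were the 2 members of the paternal and maternal groups with at least 10 TPM in every library. Plagl1, a zinc finger regulator of growth and of other imprinted genes (chromosome 10, 13060504 to 13131694), was at 3.61, 4.95, 6.81 and 4.81 TPM, low in replicate 1 and high in replicate 3. Grb10, an adaptor that dampens insulin and growth factor signalling (chromosome 11, 11930508 to 12038683), was at 1.65, 1.57, 1.34 and 1.46 TPM, just above the limit of the class.

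In the Dlk1 and Meg3 domain on chromosome 12, 3 members were low and 1, Rtl1, was silent. Dlk1, a membrane ligand related to those of Notch, was at 0.329, 0.990, 1.13 and 0.718 TPM from 21, 204, 83 and 120 counts. Meg3, the maternal non-coding RNA of the domain, had 4, 65, 36 and 55 counts, and Rian, a host of small RNAs, had 20, 72, 32 and 59. Meg3 lay below Dlk1 by 2.15 ± 0.27 log2 in 4 of 4 libraries (Meg3 minus Dlk1 -2.15). Meg3 minus Rian was -0.22 ± 0.37 log2 and negative in 3 of 4 libraries (exact permutation of signs, adjusted p = 0.25), and it was -0.04 without replicate 1, where Meg3 had 4 counts. Rtl1, a retrotransposon-derived gene needed in the placenta, had 2 counts in replicate 4 and 0 in the others.

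On chromosome 6, Peg10, a retrotransposon-derived gene of the placenta (4747306 to 4760517, plus strand), was at 0.771, 1.93, 2.41 and 0.950 TPM. Replicates 2 and 3 were high and replicates 1 and 4 low. Its neighbour Sgce, a sarcoglycan that starts beside it on the other strand, was level at 0.434, 0.380, 0.451 and 0.341 TPM. Peg10 minus Sgce was 1.56 ± 0.70 log2 in 4 of 4 libraries. Mest, a gene of the hydrolase family, was at 0.674, 0.946, 0.567 and 0.403 TPM, and Copg2, which meets it tail to tail, exceeded it by 5.92 ± 0.43 log2 in 4 of 4 libraries.

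In the Snrpn domain of chromosome 7, 3 paternal genes were low, the paternal Magel2 was silent with 0 counts, and Ube3a was expressed. Snrpn, the neuronal relative of the spliceosome protein SmB, had 7, 80, 22 and 62 counts, or 0.287, 1.02, 0.786 and 0.972 TPM. Its level is uncertain, because 27.3% of its exonic bases are shared on the same strand with Snurf and Gm38393, whose own rows had 0 counts in all libraries and 0, 6, 9 and 12 counts. With those bases left out of the length, Snrpn was at 1.04 TPM. Ube3a exceeded Snrpn by 4.52 ± 0.66 log2 and Snrpb, the general SmB gene at 745 ± 53.2 TPM, exceeded it by 9.86 ± 0.68 log2, each in 4 of 4 libraries. Ndn, a growth-restraining protein of neurons, was at 0.647, 0.438, 0.752 and 0.770 TPM, and Mkrn3, a ring finger gene tied to the onset of puberty, at 0.452, 0.442, 0.333 and 0.718.

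The Peg3 domain, Nnat and Rasgrf1 complete the set. Peg3, a zinc finger gene of growth and behaviour, had 22, 195, 38 and 50 counts, or 0.146, 0.402, 0.220 and 0.127 TPM, and was highest in replicate 2. Usp29, which starts beside it, and Zim1 had 0 counts in all 4 libraries. Against the level that 3 counts would give in each library, Peg3 was at least 9.95-fold higher than Usp29 and at least 4.45-fold higher than Zim1 in the library with the smallest ratio. The neuronal gene Nnat and the neuronal exchange factor Rasgrf1, like Magel2 of the Snrpn domain, a gene of the Prader-Willi region, also had 0 counts everywhere. In the deepest library a count of 0 allows at most 0.0450 TPM for Nnat, 0.00744 for Rasgrf1, 0.0178 for Magel2, 0.00455 for Usp29 and 0.0102 for Zim1. Blcap, in whose intron Nnat lies on the opposite strand, was at 25.2 ± 1.47 TPM (SD, n = 4). These limits include only the error of counting, as duplicate reads of 1 molecule were not marked by identifiers.

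**Figure D3:**
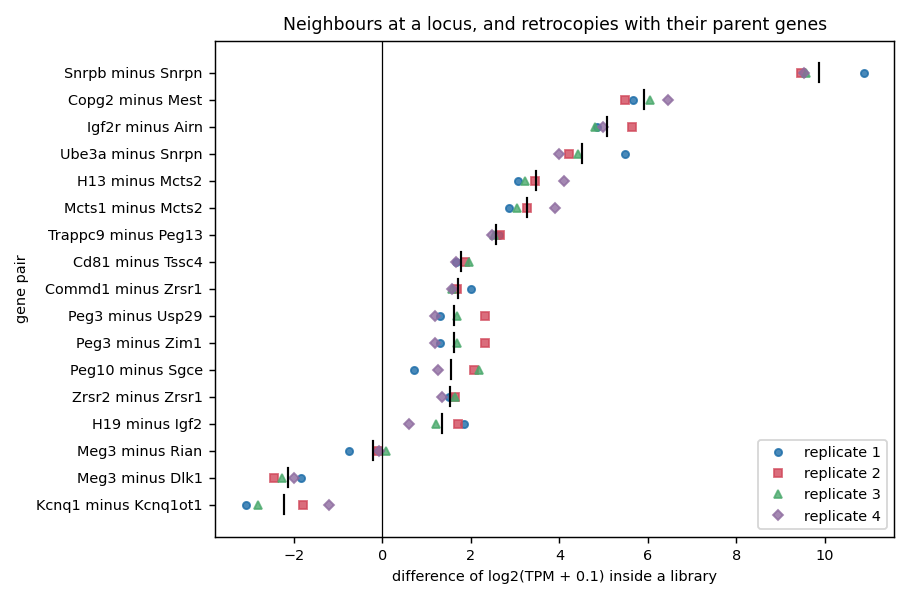
Difference of log2(TPM + 0.1) between 2 genes inside each library on the x axis, 1 point per library and a bar at the mean, for 14 pairs of neighbours at a locus and 3 pairs of a retrocopy or paralog with its parent gene. In 16 of 17 pairs all 4 points lie on 1 side of 0, and Meg3 minus Rian straddles it.

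Variation between the libraries was tested for 27 members that had enough counts in all 4 libraries. Of these, 1 varied more than genes of its level, by the deviance of an edgeR fit with trended dispersion, adjusted by Benjamini-Hochberg over 14269 genes. The background was 66 genes called, or 0.463% of those tested. The member was Kcnq1ot1, with scaled log2 CPM of 4.36, 2.82, 3.96 and 2.89 in replicates 1 to 4, a range of 2.92-fold (edgeR adjusted p = 2.15e-10). Replicates 1 and 3 were high and replicates 2 and 4 low, without overlap. The nuclear RNA Malat1 was high in the same libraries, at 348, 63.2, 246 and 59.3 TPM (edgeR adjusted p = 5.25e-77), as was the small nuclear RNA Rn7sk, at 149.6, 20.98, 80.6 and 15.1 TPM (edgeR adjusted p = 1.92e-27). Replicates 1 and 3 also had the lowest total counts. The part of depth or of nuclear RNA content in the Kcnq1ot1 values was not tested.

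Other non-coding members did not share that order. Airn, also a nuclear repressor RNA, had log2 CPM of 2.07, 1.38, 2.32 and 2.13, with only replicate 2 low (edgeR adjusted p = 1.00), and Peg13 spanned 1.22-fold (edgeR adjusted p = 1.00). Neat1, the third nuclear RNA examined, was at 14.9, 16.6, 21.9 and 16.6 TPM (edgeR adjusted p = 0.106). Among coding members, Peg10 came next after Kcnq1ot1 with a range of 2.92-fold and an unadjusted p of 8.86e-04 (edgeR adjusted p = 0.129), followed by Plagl1 with 1.76-fold (edgeR adjusted p = 0.510). Both were lowest in replicate 1 and highest in replicate 3, as was Dlk1 with 3.21-fold (edgeR adjusted p = 0.964). Peg3, which came between Plagl1 and Dlk1 by p, did not share this order. It was highest in replicate 2 and lowest in replicate 4, with 3.12-fold (edgeR adjusted p = 0.873). With a common dispersion for all genes, 7 members were called, namely Airn, Kcnq1ot1, Peg3, Peg10, Mest, Dlk1 and Mcts2, beside 955 genes in all. At the other end, Gnas, Trappc9 and H13 had ranges of 1.03-fold, 1.09-fold and 1.09-fold.

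**Figure D4:**
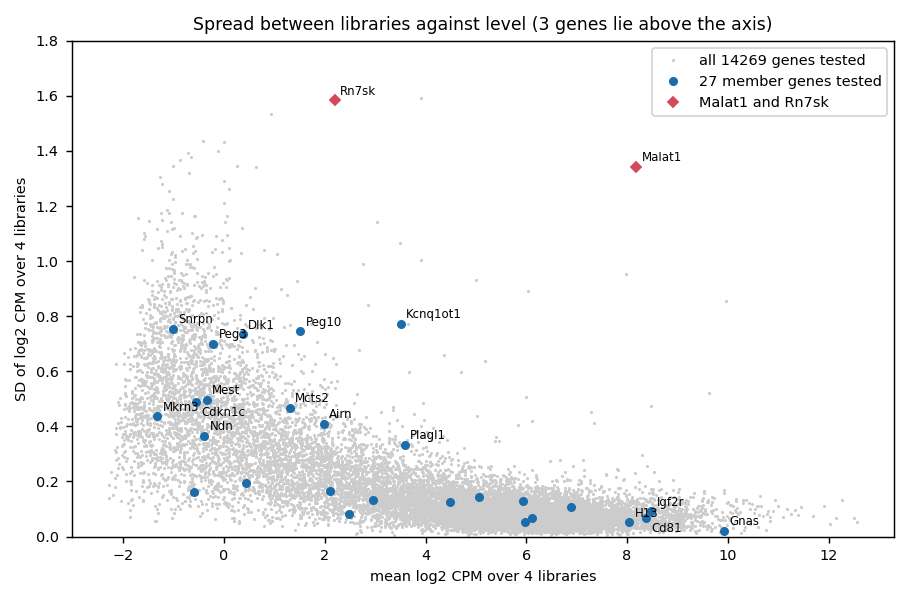
SD of log2 CPM over the 4 libraries on the y axis against mean log2 CPM on the x axis, for 14269 genes tested (grey), 27 member genes (blue) and Malat1 and Rn7sk (red). The y axis ends at 1.8, and 3 genes lie above it. Kcnq1ot1 stands above the grey cloud at its level, and Gnas, with an SD of 0.0208, lies at its lower edge. The SD was 0.0920 for Igf2r and 0.0685 for Cd81, which are abundant too.

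**Figure D5:**
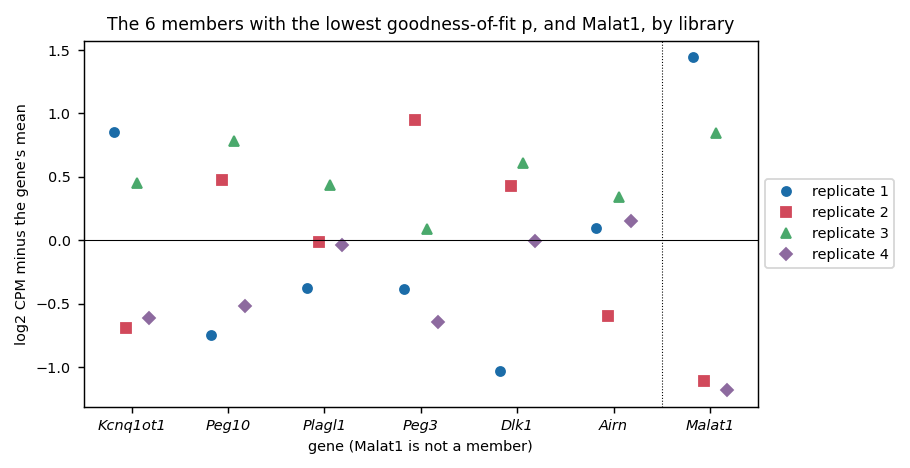
Log2 CPM minus the gene's own mean on the y axis, 1 point per library, for the 6 members with the lowest goodness-of-fit p and for Malat1. Replicates 1 and 3 lie above 0 and replicates 2 and 4 below it for Kcnq1ot1 and for Malat1, while Peg10, Plagl1 and Dlk1 are lowest in replicate 1 and highest in replicate 3. Peg3 is highest in replicate 2 and lowest in replicate 4, and Airn is lowest in replicate 2.

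RNA of most genes whose proteins keep and read imprints was present. Of 16 genes in that list, 13 were expressed, 1 was low and 2 silent, and 0 of the 14 tested varied beyond the trend. Trim28, the corepressor, stood at 541 ± 28.7 TPM (SD, n = 4), Uhrf1 at 295 ± 13.8, the cohesin subunit Rad21 at 271 ± 8.08 and the maintenance methyltransferase Dnmt1 at 247 ± 20.8. Zfp57, the zinc finger protein that guards imprints in the embryo, was low at 0.276 ± 0.099 TPM, while Zfp445, which shares that task, was at 95.1 ± 7.89. Dppa3 and Dnmt3l, genes of the germ line and early embryo, had 0 counts.

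Another 32 imprinted genes, listed from general knowledge, had 16 expressed, 6 low and 10 silent, with a median of 0.915 TPM, and 0 of 17 tested varied beyond the trend. The highest were Nap1l4, a histone chaperone, at 213 ± 2.54 TPM, Atp10a, a lipid flippase, at 88.4 ± 6.78, Dhcr7, of cholesterol synthesis, at 59.3 ± 2.32, and Tspan32, a tetraspanin, at 40.9 ± 2.59. Nap1l4 and Tspan32 lie in the Kcnq1 domain, as do Cd81 and Tssc4. The nearest protein-coding genes on either side of the 17 loci, outside both lists, numbered 33. Of these, 15 were expressed (45.5%), 5 low and 13 silent, near the 49.9% expressed among protein-coding genes. Thus Nnat, at 0 counts, lay between Src at 4.93 ± 1.10 TPM and Ctnnbl1 at 93.1 ± 3.93.

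Promoter sequence was compared for the 31 members that the RefSeq table holds, all but H19, Kcnq1, Cdkn1c, Peg10, Sgce, Rtl1, Impact, Peg13 and Trappc9. Each window ran from 250 bases before to 50 after the start, and where a gene had several starts the one nearest to the deposited gene start was taken. The median number of CG pairs was 17 in members and 7 over all 32851 windows of the table. A ratio of observed to expected CG above 0.6 was found in 19 of 31 members (61.3%) and in 35.8% of all windows. By class it was found in 11 of 13 expressed, 5 of 11 low and 3 of 7 silent members. By group it was found in 6 of 16 paternally expressed members (37.5%), near the share of all windows. It was found in 6 of 8 maternally expressed members and in 7 of 7 imprinted in some tissues or complex. All 7 of the last group were expressed, so class and group overlap here. The word TGCCGC, the core bound by Zfp57 when methylated, was searched on both strands (GCGGCA on the other). It was found in 8 of 31 members, namely Zim1, Copg2, Nnat, Grb10, Meg3, Plagl1, Commd1 and Mcts2, or 25.8%, against 11.6% of all windows. The word itself holds a CG and member windows had more CG, and the shares were not compared at equal CG content. All windows include several for some genes, while each member has 1. A match is a description of these letters and not a bound site. For Plagl1 and Mest the nearest RefSeq start lay 30328 and 9959 bases from the deposited gene start, so their windows may not be the promoter used here. The same holds for Ndn, Grb10, Zrsr1 and Phlda2, at 1708, 1263, 1210 and 626 bases. Gnas and Snrpn have 4 starts each, and the window taken may not be that of the main transcript.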

How the data were processed

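RNA from 4 libraries of mouse T cells was sequenced as total RNA per the labels, while the linked library protocol is named for polyadenylated RNA. Per the file headers, the authors counted read pairs over exons of each GENCODE M13 gene (mm10) with featureCounts 1.4.6-p4, reverse strand and both ends mapped, and deposited the unnormalised counts. Multiply mapped reads and reads overlapping several genes were not counted, so near-identical copies and genes sharing exons on 1 strand can lose counts. The headers name STAR alignments, without a version.

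Symbols came from GENCODE M21 by identifier, for 50376 of 50600 genes. TPM was computed from the deposited counts and the deposited exonic length. Pairs of genes were compared inside each library as log2(TPM + 0.1) with an exact sign-flip permutation test, adjusted over 17 pairs by Benjamini-Hochberg. Variation was tested with edgeR 4.0.16 in R 4.3.3 (filterByExpr, TMM, intercept only, goodness of fit under the trended dispersion, Benjamini-Hochberg at 0.05 over all genes) and checked on simulated data. A gene had to reach the filter's minimum in each of the 4 libraries. Coding sequences were aligned with Biopython 1.88. Zero counts were read with an upper limit of 3 counts (95% confidence).

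The members and lists were chosen with earlier results of these data known. All members are named; of the imprint maintenance and the further imprinted genes the 4 with the highest mean TPM, and all parent genes and nuclear RNAs, are named. Other non-members were named after their values were seen. Library pairs differed by 28.8 to 83.7 in chi-square per degree of freedom, so no 2 agreed within sampling noise. Alternatives were other thresholds, CPM, a length without shared bases, DESeq2 1.42.0 size factors, no filter, a common dispersion, a pseudocount of 1 and leaving out each library.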

Additional observations from a re-analysis of the deposited data

Results flagged for a closer look

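A value is listed here if 1 of its 4 libraries stood off from the rest by most of the span between lowest and highest. This held for 6 of 50 values examined, against 2.5 at a nominal 1 in 20. That rate holds for independent, normally spread values. Counts near 0 and pair differences that reuse the members are not such values, so no excess can be read from it. In replicate 4, Kcnq1 was at 0.0662 TPM against at most 0.00671 in the others, Slc22a18 at 0.0399 against 0 and Rtl1 at 0.0107 against 0, from 8, 2 and 2 counts. In replicate 3, Tssc4 was at 96.4 TPM against 109.9 to 111.2. In replicate 1, Gnas was at 262 TPM against 283 to 285. The log2 difference of Snrpb minus Snrpn was 10.88 in replicate 1 against 9.46 to 9.58, where Snrpn had 7 counts.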

How the results depend on the processing

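No paired analysis was possible because there is only 1 group. The number of members expressed, 16, was 18 at 0.5 TPM, 11 at 5 TPM and 19 at 1 CPM, and stayed 16 with lengths without shared bases and without each library in turn. The number silent, 9, was 9 to 10 without each library in turn. H13 went from 95.1 to 93.5 TPM with lengths without shared bases, though it has 0 shared bases itself. Those lengths change the library total that scales every gene. Gnas, also with 0 shared bases, went from 278 to 274 TPM. All 17 pair differences kept their direction under each alternative run, but their sizes at low levels did not hold: with a pseudocount of 1, Meg3 minus Dlk1 was -0.69, Peg10 minus Sgce 0.79 and Peg3 minus Usp29 0.29, and Meg3 minus Rian was -0.04 without replicate 1. The count of variable genes, 66, was 65 with DESeq2 size factors and 75 without a filter, 955 with a common dispersion and 41 to 68 without each library in turn, the lowest without replicate 1. The count of variable members, 1, was 7 with a common dispersion. Kcnq1ot1 was called under all 7 alternatives, with an edgeR adjusted p of 2.81e-04 without replicate 1 as its highest value. Depth limits the members with the fewest counts: 9 of the 40 had under 10 counts over all libraries together.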
